A study of Mus musculus with 12 samples.

Results

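The genes described here are the heat shock chaperones of male germ cells and the heat shock factors: Hspa1l, Hspa2, Hspa4l, Hsp90aa1, Hspb9, Dnajb3, Dnajb13, Hsf1 and Hsf2. They were taken by symbol from a table of counts per gene, and make up 9 of its 55291 genes. The study compared mice that lose Pan2 in germ cells (KO) with wildtype mice (WT), in cells sorted by FACS from fractions labelled RS and MII. PAN2 is a nuclease that trims poly(A) tails of mRNAs together with PAN3. The labels do not spell out RS and MII. In studies of spermatogenesis these stand for round spermatids, the haploid cells after meiosis, and for cells at the second meiotic division. Each of the 4 groups, KO RS, WT RS, KO MII and WT MII, had 3 libraries.

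The KO genotype is Pan2flox/-;Stra8-Cre, with a deleted and a floxed allele of Pan2. Cre is made from the promoter of Stra8, a gene that germ cells switch on near the start of meiosis, so somatic cells of the testis keep their floxed allele. The labels call the other genotype wildtype and do not say whether these mice carried Cre or a floxed allele. They give no age, and do not say whether the 3 libraries of a group came from separate animals, so p-values measure only how far these libraries vary, which could be technical. All 12 libraries were made with Smart-seq2, which primes cDNA synthesis with oligo(dT) on poly(A) tails.

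Heat shock proteins are chaperones that hold and refold other proteins. HSP70 proteins work in an ATP cycle that J domain proteins start and nucleotide exchange factors such as the HSP110 family reset, HSP90 takes over late clients, and small heat shock proteins hold unfolded ones. Male germ cells make several family members without any stress, some of them in no other tissue, and the heat shock factors HSF1 and HSF2, known for the stress response, also act in normal spermatogenesis.

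Total counts per library ran between 13781370 and 38652066, and the counts of the 9 genes between 191 for Hsf1 and 109361 for Hsp90aa1. All 9 passed the filter on low counts, with 21291 genes tested in all. The library labelled KO RS replicate 1 stood out in Pan2: its level of 22.6 CPM (counts per gene, scaled to a common total) was the highest of the 12 libraries, against 4.73 and 3.52 CPM in the other KO RS libraries and 8.12 to 12.9 CPM in WT RS. Results on KO RS are therefore given with and without it. The KO MII libraries had Pan2 at 5.08 to 7.10 CPM, against 12.9 to 17.1 CPM in WT MII. By edgeR's quasi-likelihood test with Benjamini-Hochberg adjustment, its difference passed the threshold in neither stage (adjusted p = 0.998 in RS and 0.227 in MII). The deleted part of Pan2 is not given in the labels, so counts outside it would not check the labels.

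Markers of other cells also differed between the genotypes. Of 18 Sertoli cell markers 17 were detected, and Amh was at 0 in all 12 libraries. Their summed level was 46.0 to 292 CPM in KO RS, against 7.82 to 9.06 CPM in WT RS, and 91.1 to 395 CPM in KO MII, against 22.8 to 37.7 CPM in WT MII. The 12 Leydig cell markers summed to 2.88 to 11.6 CPM in KO RS, 2.23 to 3.38 CPM in WT RS, 131 to 254 CPM in KO MII, against 44.4 to 62.0 CPM in WT MII. The 14 markers of peritubular myoid, endothelial and stromal cells overlapped in RS (14.0 to 19.0 CPM in KO, 10.8 to 15.8 CPM in WT). In MII their range lay lower in KO, at 47.5 to 112 CPM, against 81.8 to 147 CPM in WT, with overlap. In edgeR, 12 of 17 tested Sertoli markers passed in RS and 4 in MII, all higher in KO. Of 12 tested stromal markers 0 passed in RS and 2 in MII, both lower in KO. The 12 round spermatid markers summed to 6150 to 6990 CPM in KO RS and 4080 to 5550 CPM in WT RS, and to 4870 to 5540 CPM in KO MII, against 3620 to 4840 CPM in WT MII. The 8 markers of MII and late spermatocytes summed to 1010 to 1200 CPM in KO RS and 1270 to 1790 CPM in WT RS, and to 1280 to 1630 CPM in KO MII, against 1510 to 1790 CPM in WT MII. Both sorted fractions thus held transcripts of both stages. In edgeR 5 of 12 Leydig markers passed in RS and 3 in MII, and 5 of 12 round spermatid markers in RS and 1 in MII, all higher in KO. Of the 8 markers of MII and late spermatocytes 6 passed in RS and 0 in MII, all lower in KO. Of 14 markers of elongating and condensing spermatids 5 passed in each stage, all lower in KO. The part of these markers in the results below was not tested, and in such bulk libraries fewer cells of a type and less RNA per cell cannot be told apart.

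Per kilobase of exon, the chaperones covered a wide range of levels, and in each group their means kept the same order. Dnajb3, which encodes a J domain protein of spermatids, was highest at 1244 CPM per kilobase in KO RS, 1116 in WT RS, 1163 in KO MII and 1118 in WT MII, ranking between 22 and 33 among the genes tested. Hspb9 followed at 763 to 954 CPM per kilobase across the 4 group means, then Hsp90aa1 at 471 to 645 and Hspa2 at 346 to 441. Dnajb13 lay at 186 to 267, Hspa4l at 51.4 to 60.6 and Hspa1l at 17.3 to 24.97 CPM per kilobase. The level of Hspa1l may be too low, because of the antisense overlap given below. The factors were lower on this scale, Hsf2 at 5.15 to 11.3 and Hsf1 at 2.04 to 4.83 CPM per kilobase. The order depends on the divisor, the merged exon length of all annotated transcripts (9606 bases for Hsf2, 7099 for Hsf1, 2472 for Hspa1l). An expressed mRNA can be shorter. Without it, Hsf2 averaged 108.5 CPM in KO RS, 79.9 in WT RS, 68.7 in KO MII and 49.5 in WT MII. Hspa1l averaged 42.8, 61.7, 43.8 and 60.8 CPM in the same order. Within a group the libraries of neighbouring genes in this order did not overlap, except Hsp90aa1 (436 to 493 CPM per kilobase) and Hspa2 (389 to 492) in WT RS.

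**Figure D1:**
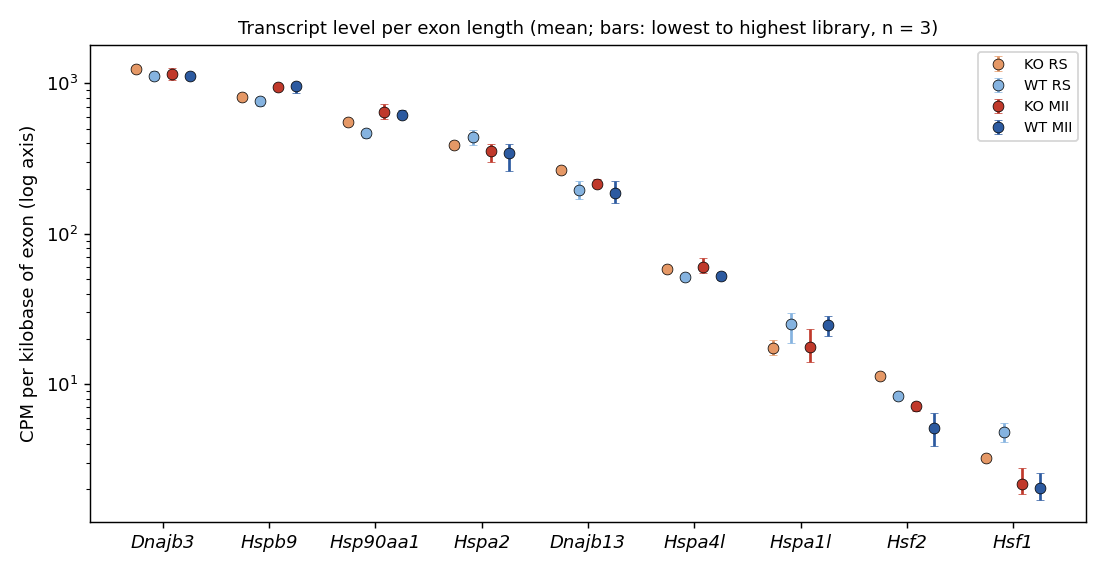
Mean level of each gene in CPM per kilobase of exon (log axis), by group, with the lowest and highest of 3 libraries as bars. Dnajb3 lies highest, at 1116 to 1244 CPM per kilobase, and Hsf1 lowest, at 2.04 to 4.83.

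The promoters of 4 of the genes are shown, those of Dnajb13 and Hsf2 because their transcripts differed between groups below, and those of Dnajb3 and Hspa2, highly expressed genes, for their matches to a motif of the CREM family. Each runs over 300 bases, 250 before and 50 from the annotated start, on the gene's own strand, in RefSeq's annotation of build GRCm38.p6. RefSeq's table gave a promoter for 7 of the 9 genes, all but Hsp90aa1 and Hsf1. Capitals mark TGACG, the half-site of the cAMP response element, on either strand (CGTCA on the strand shown).
Dnajb3, chr1:88205699-88205998 (- strand): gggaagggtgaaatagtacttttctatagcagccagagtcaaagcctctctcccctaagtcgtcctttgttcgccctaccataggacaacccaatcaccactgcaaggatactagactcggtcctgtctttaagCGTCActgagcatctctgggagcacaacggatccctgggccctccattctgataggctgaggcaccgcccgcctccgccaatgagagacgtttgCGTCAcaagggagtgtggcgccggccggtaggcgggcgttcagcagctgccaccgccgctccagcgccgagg
Hspa2, chr12:76404120-76404419 (+ strand): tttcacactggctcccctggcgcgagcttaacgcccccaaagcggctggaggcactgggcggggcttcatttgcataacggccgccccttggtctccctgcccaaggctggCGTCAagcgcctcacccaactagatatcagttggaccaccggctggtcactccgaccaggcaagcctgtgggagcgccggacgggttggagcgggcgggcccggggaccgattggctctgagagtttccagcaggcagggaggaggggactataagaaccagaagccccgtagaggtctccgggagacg
Dnajb13, chr7:100514766-100515065 (- strand): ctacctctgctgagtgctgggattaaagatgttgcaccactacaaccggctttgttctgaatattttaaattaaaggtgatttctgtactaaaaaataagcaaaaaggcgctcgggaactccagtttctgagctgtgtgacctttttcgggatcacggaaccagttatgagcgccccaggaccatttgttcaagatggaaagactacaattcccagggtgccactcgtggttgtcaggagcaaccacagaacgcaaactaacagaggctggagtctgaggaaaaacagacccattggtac
Hsf2, chr10:57486135-57486434 (+ strand): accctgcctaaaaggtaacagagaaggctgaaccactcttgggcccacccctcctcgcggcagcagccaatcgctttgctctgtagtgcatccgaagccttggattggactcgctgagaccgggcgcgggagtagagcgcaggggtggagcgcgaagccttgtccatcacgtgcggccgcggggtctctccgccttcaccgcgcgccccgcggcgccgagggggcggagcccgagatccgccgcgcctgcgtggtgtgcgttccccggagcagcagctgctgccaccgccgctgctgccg

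TGACG on either strand was found in 4 of the 7 promoters, against 20.8% of 32851 promoters of the same length. Dnajb3 had it at 116 to 112 and at 22 to 18 bases upstream of the start, Hspa2 at 139 to 135, Hspa4l at 247 to 243 and Hspa1l at 71 to 67. The full palindrome TGACGTCA was in none of the 7, and in 1.79% of all promoters. The paired units of a heat shock element, GAANNTTC or TTCNNGAA on either strand, were in none of the 7 and in 15.1% of all promoters. The run of a further such unit, which contains those pairs, was in 0.603% of all promoters and again in none of the 7. These are matches of letters in a window, not sites of binding.

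**Figure D2:**
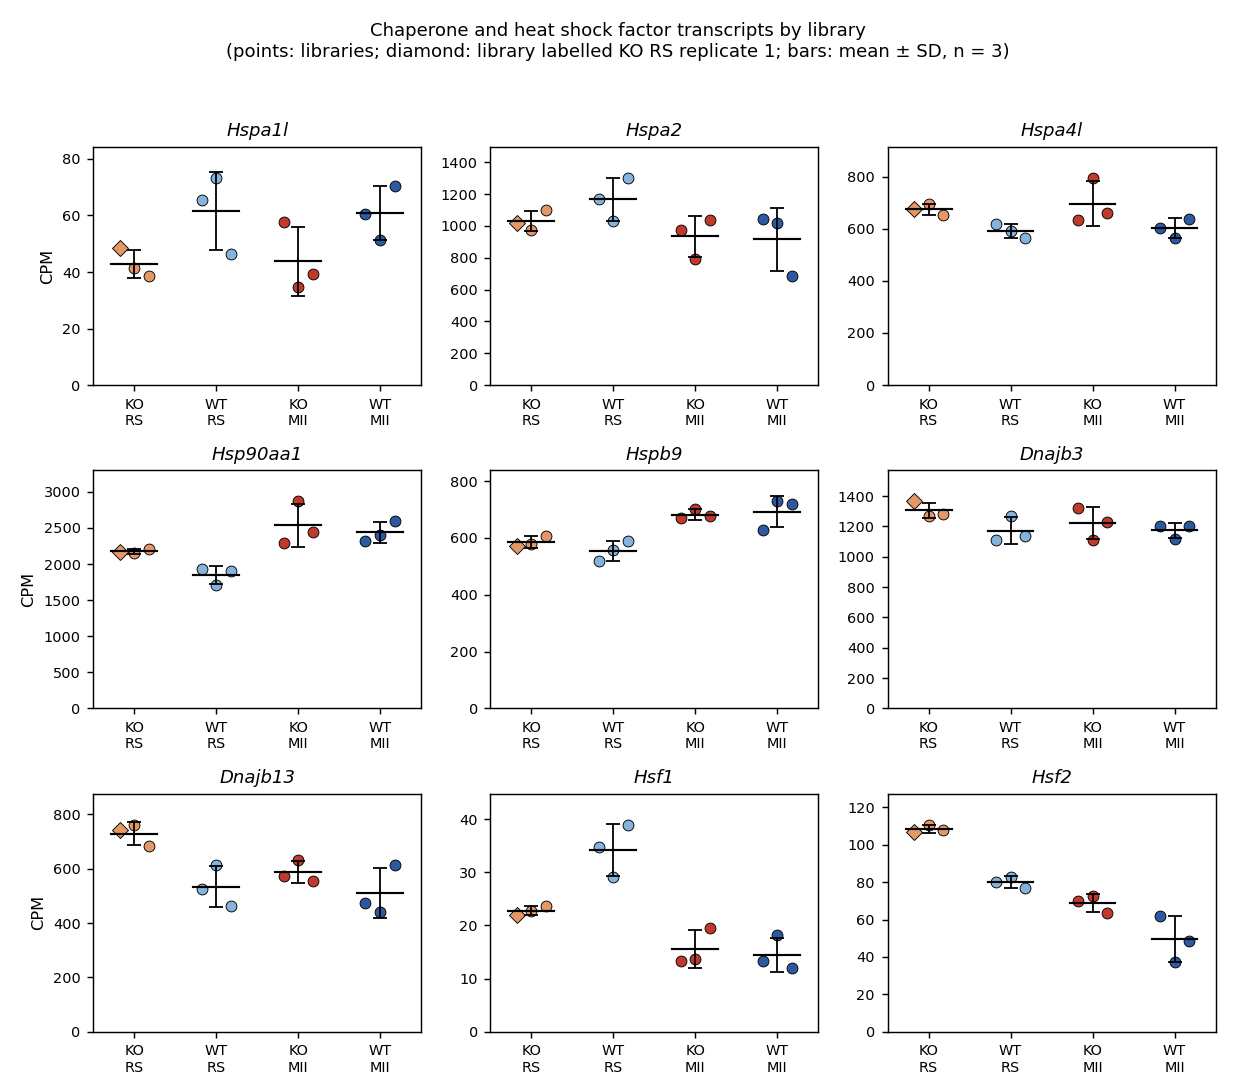
Level of each gene in CPM by group (KO RS, WT RS, KO MII, WT MII), with 1 point per library, bars for the mean ± SD (n = 3) and a diamond for the library labelled KO RS replicate 1. Hsf2 in KO RS lies at 107 to 111 CPM, above 76.7 to 83.1 in WT RS, and Hsf1 in KO RS at 22.0 to 23.7 CPM, below 29.1 to 38.9 in WT RS.

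Among the HSP70 genes, neither passed the threshold between the genotypes in edgeR's fit of all 12 libraries. Exon numbers here and below count blocks of overlapping exons merged over all annotated transcripts, so a single transcript can have more. Hspa2 (chr12:76404176-76406938, mm10, + strand, 2 exons) encodes the HSP70 of spermatocytes and spermatids that mice need to complete meiosis. It was at 1016, 976 and 1099 CPM in KO RS libraries, against 1169, 1030 and 1300 CPM in WT RS libraries. Its MII levels were 976, 792 and 1039 CPM in KO libraries, against 1041, 1018 and 688 CPM in WT libraries. The genotypes overlapped in both stages, with log2 fold changes of -0.18 (SE 0.153, adjusted p = 0.485) in RS and 0.03 (SE 0.153, adjusted p = 0.939) in MII by edgeR's quasi-likelihood test. The RS value was -0.17 (adjusted p = 0.650) without the library labelled KO RS replicate 1. The 95% intervals, -0.50 to 0.14 in RS and -0.29 to 0.35 in MII, leave room for modest changes either way.

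Hspa1l (chr17:34972703-34979285, + strand, 2 exons), which encodes an HSP70 of spermatids, was lower in KO means in both stages without passing the threshold in the fit of all 12 libraries. It was at 48.4, 41.4 and 38.6 CPM in KO RS and 65.5, 73.2 and 46.4 CPM in WT RS. In MII the levels were 57.7, 34.5 and 39.2 CPM in KO and 60.4, 51.4 and 70.6 CPM in WT. One KO library reached into the WT range in each stage. The log2 fold changes were -0.53 (SE 0.200, adjusted p = 0.0857) in RS and -0.47 (SE 0.200, adjusted p = 0.194) in MII by edgeR. With the library labelled KO RS replicate 1 left out the RS value was -0.63 (adjusted p = 0.119). It passed without WT MII replicate 2 (-0.58, adjusted p = 0.0427), without WT RS replicate 3 (-0.71, adjusted p = 0.0453) or without a filter on low counts (-0.51, adjusted p = 0.0363). Its reads are uncertain: 70.8% of its 100-base windows also occur, on either strand, in Gm10501, Hspa1a or Hspa1b, and most often in Gm10501. That antisense gene covers 71.9% of the exon bases of Hspa1l. With 1681 shared windows and 1778 covered bases, the 2 values largely count the same bases. A share for Hspa1a and Hspa1b alone was not taken. These genes held few counts themselves, at most 12 for Gm10501, 27 for Hspa1a and 6 for Hspa1b in any library. Reads that fall on 2 genes may have been left out of the counting, and would then be in neither gene. The low counts therefore do not show that Hspa1l is unaffected, and its level may be too low.

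Hspa4l (chr3:40745382-40796103, + strand, 20 exons) encodes an HSP110 protein, a nucleotide exchange factor for HSP70 needed for full male fertility in mice. It was at 675, 696 and 653 CPM in KO RS, above all WT RS libraries at 618, 593 and 563 CPM. MII libraries had 634, 795 and 662 CPM in KO and 604, 565 and 640 CPM in WT, which overlapped. The log2 fold changes of 0.19 in RS (SE 0.119, adjusted p = 0.315) and 0.21 in MII (SE 0.119, adjusted p = 0.352) did not pass the threshold in edgeR, and the RS value was 0.19 (adjusted p = 0.495) without the library labelled KO RS replicate 1.

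Hsp90aa1 (chr12:110690605-110702728, - strand, 11 exons), the cytosolic HSP90 that mouse spermatocytes need to pass through meiotic prophase, had the highest counts of the 9 genes. It was at 2165, 2148 and 2209 CPM in KO RS and 1937, 1712 and 1907 CPM in WT RS. In the MII fraction it was at 2294, 2866 and 2450 CPM in KO and 2316, 2405 and 2599 CPM in WT. The KO RS libraries all lay above WT RS, but the log2 fold change of 0.23 (SE 0.115, adjusted p = 0.193) did not pass the threshold in edgeR, nor did 0.06 in MII (SE 0.115, adjusted p = 0.837). Leaving out the library labelled KO RS replicate 1 gave 0.23 in RS (adjusted p = 0.352), and the RS value passed when only the 6 RS libraries were fitted (0.24, adjusted p = 0.0428). Between the stages it fell in WT, by 0.40 on the log2 scale in RS against MII (SE 0.115, adjusted p = 0.0229), with no overlap. That call was lost without WT RS replicate 1 (adjusted p = 0.0824) or WT RS replicate 2 (0.0940), without a filter on low counts (-0.34, adjusted p = 0.125) and with only the libraries compared (-0.40, adjusted p = 0.103). In KO the stage difference was -0.22 (SE 0.115, adjusted p = 0.221), and -0.22 (adjusted p = 0.375) without the library labelled KO RS replicate 1. The pseudogenes Gm12346, Gm5844 and Gm5511 share 38.0% of its 100-base windows, and Gm12346, the highest of them, was at 7.63 to 13.1 CPM.

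Hspb9 (chr11:100713850-100714575, + strand, 1 exon) encodes a small heat shock protein made in testis. It was at 571, 578 and 608 CPM in KO RS, 518, 557 and 588 CPM in WT RS, 668, 703 and 676 CPM in KO MII, and 629, 728 and 721 CPM in WT MII. The genotypes overlapped in both stages, and the RS libraries of each genotype lay below all of its MII libraries. The log2 fold change between RS and MII was -0.32 in WT (SE 0.114, adjusted p = 0.0593) and -0.22 in KO (SE 0.114, adjusted p = 0.223), and neither passed the threshold in edgeR's fit of all 12 libraries. The WT value passed in DESeq2 (-0.31, adjusted p = 0.0253), in limma-voom (-0.33, adjusted p = 0.0370), with a filter at 5 CPM (-0.35, adjusted p = 0.0223) and without WT MII replicate 1 (-0.37, adjusted p = 0.0454). The KO value was -0.20 (adjusted p = 0.423) without the library labelled KO RS replicate 1. Between the genotypes it was 0.08 in RS (adjusted p = 0.697, and 0.10 with adjusted p = 0.751 without that library) and -0.02 in MII (adjusted p = 0.942).

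Of the J domain genes, Dnajb13 differed between the genotypes in RS and Dnajb3, whose promoter is shown above, did not pass in any comparison. Dnajb3 (chr1:88204732-88205782, - strand, 1 exon) lies within introns of the Ugt1a genes and shares no exon base with them. It was at 1365, 1272 and 1284 CPM in KO RS, 1109, 1272 and 1137 CPM in WT RS, 1324, 1114 and 1227 CPM in KO MII, and 1202, 1118 and 1204 CPM in WT MII. Its log2 fold changes between the genotypes were 0.16 in RS (SE 0.114, adjusted p = 0.397) and 0.06 in MII (SE 0.114, adjusted p = 0.835), and between the stages -0.00 in WT (adjusted p = 0.994) and 0.10 in KO (adjusted p = 0.629). Leaving out the library labelled KO RS replicate 1 gave 0.12 between the genotypes in RS (adjusted p = 0.667) and 0.07 between the stages in KO (adjusted p = 0.827).

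Dnajb13 (chr7:100501716-100514960, - strand, 9 exons) carries a J domain but works in cilia and sperm tails, where its product is part of the radial spokes of the axoneme. It was at 743, 761 and 682 CPM in KO RS, above all WT RS libraries at 527, 612 and 463 CPM. It rose in KO RS by 0.45 on the log2 scale (SE 0.140, 1.37-fold, adjusted p = 0.0400, edgeR). Without the library labelled KO RS replicate 1 the change was 0.43 (SE 0.165, adjusted p = 0.130) and no longer passed. The call was also lost without any other single RS library except WT RS replicate 2 (adjusted p between 0.0569 and 0.211), and without KO MII replicate 1 (0.0537) or KO MII replicate 3 (0.0532). In MII it was at 575, 631 and 556 CPM in KO and 474, 440 and 613 CPM in WT, a log2 fold change of 0.21 (SE 0.140, adjusted p = 0.449). The summed round spermatid markers given above moved the same way in RS, and their part in the result was not tested.

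Exons of Dnajb13 overlap those of the antisense gene Ucp2 over 305 bases, 11.2% of its exon length. Ucp2 was at 1.19 to 4.18 CPM in KO RS and 0.374 to 0.887 CPM in WT RS, with a log2 fold change of 1.84 that passed (adjusted p = 0.0223, edgeR). The sources used here do not name the strand setting of the counting, so reads of the overlap cannot be told apart. The level of Dnajb13 was at least 463 CPM in each RS library, while Ucp2 did not go above 4.18 CPM there. Reads left out of the counting for falling on both genes would be in neither value.

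Both heat shock factors rose between the stages in WT. Hsf1 (chr15:76477422-76501913, + strand, 8 merged exons) encodes the main transcription factor of the stress response. It was at 22.0, 22.6 and 23.7 CPM in KO RS, below all WT RS libraries at 34.7, 29.1 and 38.9 CPM. It fell in KO RS by 0.59 on the log2 scale (SE 0.191, adjusted p = 0.0466, edgeR), a fold of 0.665. Without the library labelled KO RS replicate 1 the change was -0.57 (SE 0.228, adjusted p = 0.153), and it was also lost without any other RS library except WT RS replicate 2 (adjusted p between 0.0846 and 0.178), or when either WT MII replicate 1 (0.0510) or KO MII replicate 2 (0.0534) was left out. In MII it was at 13.2, 13.7 and 19.6 CPM in KO and 13.3, 18.1 and 12.1 CPM in WT, which overlapped, with a log2 fold change of 0.10 (SE 0.195, adjusted p = 0.837).

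Between the stages Hsf1 rose in WT, by 1.24 on the log2 scale in RS against MII (SE 0.195, 2.36-fold, adjusted p = 0.000409, edgeR). All WT RS libraries lay above all WT MII libraries, and the call held in 12 of 12 fits without 1 library. In KO the stage difference was 0.56 (SE 0.193, adjusted p = 0.0664), also with no overlap, and 0.58 (adjusted p = 0.121) without the library labelled KO RS replicate 1. It passed in DESeq2 (0.57, adjusted p = 0.0360), in limma-voom (0.59, adjusted p = 0.0469), without a filter on low counts (0.61, adjusted p = 0.0294), with only the libraries compared (0.56, adjusted p = 0.0212), and when KO MII replicate 3 (0.0318), WT MII replicate 2 (0.0489) or WT MII replicate 3 (0.0454) was left out. The difference between the genotype effects of the stages was -0.68 (SE 0.273), with an unadjusted p of 0.0211 and an adjusted p of 0.735, so a difference in the response of Hsf1 was not shown.

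Hsf2 (chr10:57486385-57513135, + strand, 12 exons), a factor of development and gametogenesis whose loss in mice disturbs meiosis, was higher in KO than in WT libraries of both stages, with no overlap. It was at 107, 111 and 108 CPM in KO RS and 80.1, 83.1 and 76.7 CPM in WT RS. In MII it was at 69.8, 72.8 and 63.4 CPM in KO and 62.2, 37.6 and 48.7 CPM in WT. The log2 fold changes of 0.44 in RS (SE 0.156, 1.36-fold, adjusted p = 0.0659) and 0.48 in MII (SE 0.157, 1.39-fold, adjusted p = 0.0966) did not pass the threshold in edgeR. Without the library labelled KO RS replicate 1 the RS value was 0.45 (SE 0.184, adjusted p = 0.157). Without WT MII replicate 1 the MII value was 0.66 (adjusted p = 0.0271), and RS passed without WT MII replicate 1 (0.0426), 2 (0.0468) or 3 (0.0499). DESeq2 called Hsf2 in both stages (adjusted p = 0.0407 in RS and 0.0498 in MII), and a fit of only the RS libraries called it in RS (0.0128).

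Hsf2 rose between the stages in both genotypes. In RS against MII the log2 fold change was 0.66 in KO (SE 0.157, 1.58-fold, adjusted p = 0.00967) and 0.70 in WT (SE 0.158, 1.62-fold, adjusted p = 0.00571). The RS libraries lay above the MII libraries of the same genotype in each case, and both calls held in 12 of 12 fits without 1 library. The KO value was 0.67 (adjusted p = 0.0301) without the library labelled KO RS replicate 1. Exons of Hsf2 share 0.08% of their 100-base windows with another gene, and those of Hsf1, Hspa2, Hspa4l, Hspb9 and Dnajb3 share none.

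**Figure D3:**
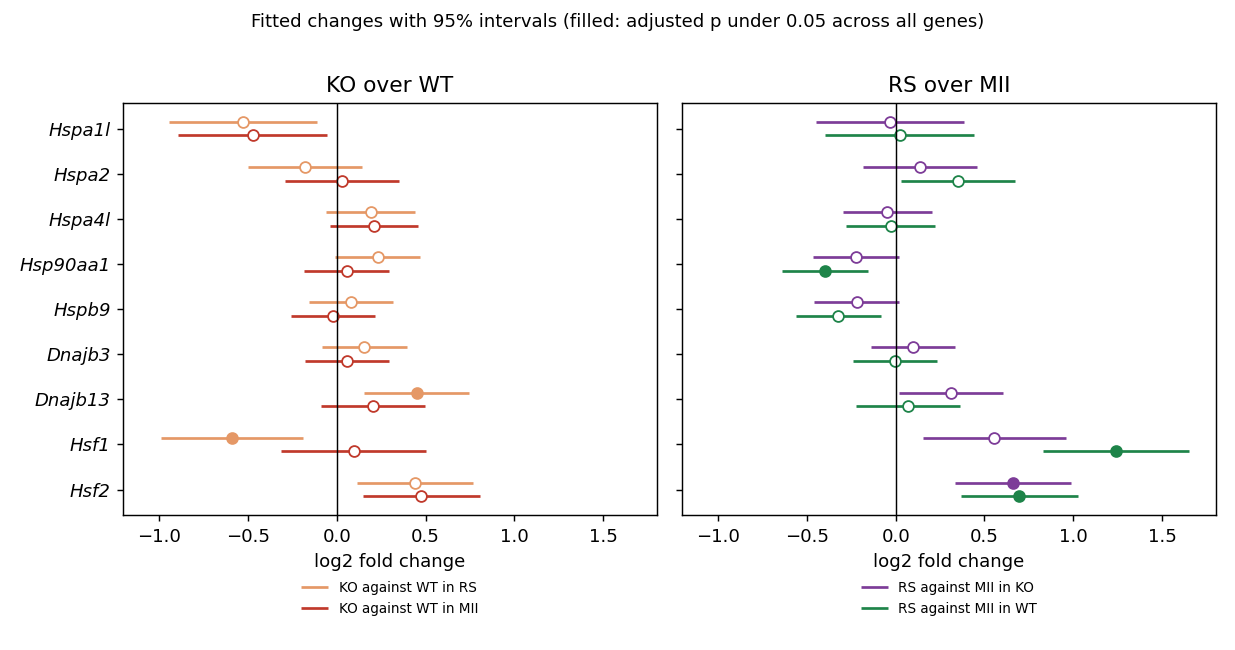
Log2 fold change of each gene with its 95% interval for KO against WT in RS and in MII and for RS against MII in KO and WT, with called changes marked. The RS increase of Hsf1 in WT, 1.24, lies farthest from 0, and Dnajb3 lies between -0.00 and 0.16 in the 4 comparisons.

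Over the 9 genes, 2 passed in edgeR between the genotypes in RS (Dnajb13 higher, Hsf1 lower), against 13.4% of all genes tested, 6.06% higher and 7.39% lower. DESeq2 called 3, with Hsf2 added, and limma-voom 2. Their median log2 fold change was 0.16, against -0.01 over all genes, with 6 positive and 3 negative values. In RS 6 of the 9 had no overlap between the genotypes, 5 of them higher in KO and 1 lower, against 36.1% of all genes. The 5 were Hspa4l, Hsp90aa1, Dnajb3, Dnajb13 and Hsf2, of which Dnajb3 has its lowest KO and its highest WT library both at 1272 CPM. Without the library labelled KO RS replicate 1, 0 of the 9 passed in edgeR, DESeq2 or limma-voom, with 4 at an unadjusted p under 0.05 in edgeR, and the number of all genes called fell to 1080, against 2863 with it. Leaving out WT RS replicate 3, KO RS replicate 2 or WT RS replicate 1 also lowered that number, to 1139, 1347 and 1483. In edgeR 0 of the 9 passed without WT RS replicate 1, KO RS replicate 2 or KO RS replicate 3 as well. Of the 2863 genes called with all 12 libraries 45.1% were higher in KO, and 34.2% of 2967 when libraries were scaled by total count alone.

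In MII, edgeR called 0 of the 9 genes between the genotypes, against 3.68% of all genes, 1.83% higher and 1.86% lower. At an unadjusted p under 0.05 there were 2, Hspa1l lower and Hsf2 higher, DESeq2 called 1 (Hsf2) and limma-voom 0. The median log2 fold change was 0.06, against -0.01 over all genes (7 positive, 2 negative), and 1 of the 9, Hsf2, had no overlap, against 22.2% of all genes. For the difference between the genotype effects in RS and MII, edgeR, DESeq2 and limma-voom each called 0 of the 9, against 0.00470% of all genes in edgeR. At an unadjusted p under 0.05 there was 1, Hsf1.

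Between the stages, 1 of the 9 passed in edgeR in KO (Hsf2 higher in RS), against 12.3% of all genes (4.16% higher, 8.17% lower), and 3 passed in WT (Hsf1 and Hsf2 higher in RS, Hsp90aa1 lower), against 16.4% (7.74% higher, 8.68% lower). DESeq2 and limma-voom each called 2 in KO, with Hsf1 added, and 4 in WT, with Hspb9 added. The medians were 0.10 in KO and 0.02 in WT, against -0.01 and -0.03 over all genes. The RS and MII libraries of 5 of the 9 did not overlap in KO (37.0% of all genes) and those of 4 did not in WT (30.5%). Of the 2625 genes called in KO 33.7% were higher in RS, and 23.5% of 2556 when libraries were scaled by total count alone. Both stage comparisons share libraries with those of the genotypes, so their values stand side by side and are not independent of each other.

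The ratio of family members within a library does not depend on the scaling between libraries. The following ratios, per kilobase of exon, were chosen after the values of the genes were seen and carry no test. Their size, but not their comparison between groups, depends on the merged exon lengths. The shared 100-base windows given above were sought for the 9 genes alone, not for family members outside them such as Hsp90ab1 and Hspa8. Hsf2 over Hsf1 was 3.52 ± 0.130 in KO RS and 1.76 ± 0.328 in WT RS, 3.40 ± 0.878 in KO MII and 2.65 ± 0.997 in WT MII (SD, n = 3 each). The ratio of the KO RS libraries was 3.38 to 3.61, above 1.46 to 2.11 in WT RS, while the MII ranges overlapped (2.39 to 3.93 in KO, 1.53 to 3.44 in WT). Hsp90aa1 over Hsp90ab1, the constitutive cytosolic HSP90, was 17.9 to 19.2 in KO RS and 9.67 to 11.1 in WT RS, and 14.3 to 21.4 in KO MII and 13.1 to 20.2 in WT MII. The genotypes did not overlap in this ratio in RS and overlapped in MII. Hspa2 over Hspa8, the constitutive HSP70, was 45.2 to 66.4 in KO RS and 89.7 to 105 in WT RS, and 28.6 to 50.1 in KO MII and 51.6 to 84.2 in WT MII, so it was lower in each KO library than in any WT library of the same stage. Hspa8 is made by most cell types, and the summed Sertoli markers were higher in KO libraries of both stages. Their part in this ratio was not tested. Of the other ratios taken, Hspa4l over Hspa4 overlapped in RS (0.711 to 0.815 in KO, 0.671 to 0.827 in WT) and in MII. Dnajb3 over Dnajb1 did too (5.54 to 6.13 in KO RS, 4.64 to 5.96 in WT RS). Hspa1l over Hspa8 did not overlap in either stage (2.3 to 3.01 in KO RS, 4.01 to 6.82 in WT RS). The size of that ratio may be too low if reads in the antisense overlap of Hspa1l were left out. A share of ratios without overlap over all genes was not taken.

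**Figure D4:**
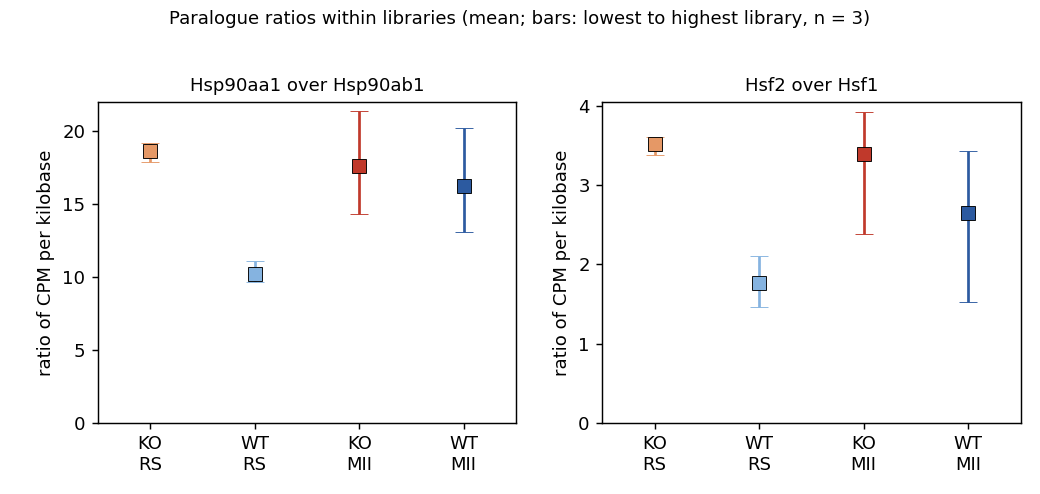
Ratios of CPM per kilobase within a library, Hsp90aa1 over Hsp90ab1 and Hsf2 over Hsf1, by group, with the mean as a square and the lowest and highest of 3 libraries as bars. In KO RS the first is 17.9 to 19.2 and the second 3.38 to 3.61, above 9.67 to 11.1 and 1.46 to 2.11 in WT RS.

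Around these genes, 133 other genes of the chaperone network were followed in 11 lists, and 126 of them were tested. In RS 2 rose and 21 fell in KO, 18.3% of those tested against 13.4% of all genes, with a median log2 fold change of -0.02. Without the library labelled KO RS replicate 1, 1 rose and 12 fell, 10.3% against 4.95% of all genes, and without WT RS replicate 3 it was 1 and 15. In MII 2 rose and 4 fell, 4.76% against 3.68% of all genes, and between 1.59% and 5.56% without single libraries. For the difference between the stages edgeR, DESeq2 and limma-voom called 0, with 17 at an unadjusted p under 0.05 in edgeR.

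Among the partners of the cytosolic chaperones, several fell in KO RS. Hsp90ab1 was at 89.1 ± 4.59 CPM in KO RS and 139 ± 18.1 CPM in WT RS (SD, n = 3 each), a fall of 0.64 on the log2 scale (adjusted p = 0.00941, edgeR), and was the 1 of 3 HSP90 genes to pass. Of 20 co-chaperones of HSP90, 4 fell and none rose, against 7.39% of all genes lower and 6.06% higher in RS. Ptges3, which encodes the p23 co-chaperone, was at 279 ± 24.1 CPM in KO RS and 461 ± 59.9 CPM in WT RS (-0.73, adjusted p = 0.00245). Ahsa1, the activator of the HSP90 ATPase, changed by -0.80 (adjusted p = 0.00851), the phosphatase gene Ppp5c by -1.21 (0.00895) and Ttc4 by -0.62 (0.0126). The calls of Hsp90ab1 and Ptges3 held in 12 of 12 fits without 1 library. Those of Ahsa1 and Ttc4 were lost without the library labelled KO RS replicate 1 (adjusted p = 0.0635 and 0.0737), and that of Ppp5c without WT RS replicate 3 (0.0534).

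Of 11 tested HSP70 and HSP110 genes, 3 fell in KO RS and none rose, against 7.39% of all genes lower and 6.06% higher. Hyou1, a chaperone of the endoplasmic reticulum, was at 2.36 ± 0.330 CPM in KO RS and 7.26 ± 1.83 CPM in WT RS (-1.62, adjusted p = 0.00184), which held in 12 of 12 fits without 1 library. Hsph1, the other cytosolic HSP110 beside Hspa4 and Hspa4l, changed by -0.59 (adjusted p = 0.0314) and Hspa5, which encodes BiP, by -0.53 (adjusted p = 0.0337), each held in 8 of 12 fits. Both were lost without the library labelled KO RS replicate 1 (-0.61 with adjusted p = 0.0946 for Hsph1, -0.46 with 0.152 for Hspa5). In MII Hspa8 rose to 44.4 ± 10.3 CPM in KO, against 22.3 ± 2.55 CPM in WT (0.99, adjusted p = 0.00805, lost without KO MII replicate 1 at 0.0563), and Hsph1 fell (-0.70, adjusted p = 0.0331, held in 7 of 12 fits). KO MII replicate 1 also had the highest summed Sertoli markers, 395 CPM, and their part in the change of Hspa8 was not tested.

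Of 43 tested J domain proteins, the partners that direct HSP70, 1 rose and 5 fell in KO RS in edgeR, 14.0% against 13.4% of all genes, a share near that of all genes. Of 15 in classes A and B, 2 fell in KO RS, Dnajb5 (-0.90, adjusted p = 0.00613, held in 12 of 12 fits) and Dnajb2 (-0.52, adjusted p = 0.0283, lost without the library labelled KO RS replicate 1 at 0.120). Of 28 in class C, 3 fell and 1 rose. Dnajc7 was at 67.5 ± 0.184 CPM in KO RS and 116 ± 7.47 CPM in WT RS (-0.78, adjusted p = 0.000583, held in 12 of 12 fits), and Dnajc8 and Dnajc17 changed by -0.61 (adjusted p = 0.0335) and -1.51 (0.0194), each held in 9 of 12. Dnajc18 rose to 328 ± 17.9 CPM in KO RS, against 225 ± 18.03 CPM in WT RS (0.54, adjusted p = 0.0102, held in 8 of 12 fits). The calls of Dnajc8, Dnajc17 and Dnajc18 were lost without the library labelled KO RS replicate 1 (adjusted p = 0.112, 0.0912 and 0.0570). In MII only Dnajb5 of the J domain lists passed in edgeR (-0.71, adjusted p = 0.0483, held in 2 of 12 fits).

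Dnajb13 was set beside the genes of the radial spokes and sperm axoneme. Of 11 tested, 0 passed between the genotypes in RS or MII in edgeR, against 13.4% and 3.68% of all genes. Their medians were 0.09 and -0.04, with 8 positive values in RS and 5 in MII. So few genes do not show that Dnajb13 differs from them. Ropn1l, the most abundant, averaged 2920 ± 70.9 CPM in KO RS and 2656 ± 71.8 CPM in WT RS (0.14, adjusted p = 0.437). Rsph1, next in level, averaged 1048 ± 75.2 CPM in KO RS and 1200 ± 189 CPM in WT RS (-0.20, adjusted p = 0.391).

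Of 5 tested genes for other heat shock factors and their regulators, 1 passed in RS, against 13.4% of all genes. Hsfy2, the autosomal relative of the HSFY factors, rose in KO RS to 366 ± 31.2 CPM, against 207 ± 52.9 CPM in WT RS (0.82, adjusted p = 0.0102, edgeR). That call was lost without WT RS replicate 3 (adjusted p = 0.0691) and held without the library labelled KO RS replicate 1 (0.0475). In MII none of the 5 passed in edgeR. Hsbp1, which encodes a binding protein that holds HSF1 in check, averaged 1713 ± 37.5 CPM in KO MII, against 2077 ± 607 CPM in WT MII (-0.28, adjusted p = 0.321), and Hsfy2 325 ± 51.0 CPM in KO MII, against 222 ± 57.7 CPM in WT MII (0.55, adjusted p = 0.120).

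Of 7 partners and clients of HSPA2, 5 fell in KO RS and none rose, against 7.39% of all genes lower and 6.06% higher. They include the transition proteins Tnp1 and Tnp2, which replace histones in condensing spermatids and are held by HSPA2, and the cell cycle kinase Cdk1, which HSPA2 helps to join with cyclin B1. Tnp2 was at 275 ± 48.6 CPM in KO RS and 1293 ± 319 CPM in WT RS (-2.23, adjusted p = 9.52e-06), and at 328 ± 95.01 CPM in KO MII, against 1027 ± 313 CPM in WT MII (-1.65, adjusted p = 0.000808). Tnp1 changed by -1.33 in RS (adjusted p = 0.00122) and -1.03 in MII (adjusted p = 0.0178). Cdk1 changed by -0.94 in RS (adjusted p = 0.00516), and Shcbp1l, whose product binds HSPA2, by -1.02 (adjusted p = 0.000412). With the library labelled KO RS replicate 1 left out these 4 still passed, and the other gene that fell, Ccnb1, did not (adjusted p = 0.0527). Cdk1 belongs to the markers of MII and late spermatocytes, and Tnp1 and Tnp2 to those of elongating spermatids, whose sum was 7220 to 8260 CPM in KO RS and 9610 to 13600 CPM in WT RS.

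In each of 3 further lists 1 gene passed in RS, where 13.4% of all genes did. Of 11 chaperonin genes, Cct8, a subunit of the cytosolic TRiC ring, fell in KO RS to 139 ± 14.5 CPM, against 272 ± 44.4 CPM in WT RS (-0.97, adjusted p = 0.000564, held in 12 of 12 fits). The other 10 had positive log2 fold changes in RS that did not pass, for example 0.12 for Tcp1 (adjusted p = 0.553). In MII the mitochondrial chaperonin Hspd1 rose to 7.27 ± 2.67 CPM in KO, against 2.98 ± 0.252 CPM in WT (1.28, adjusted p = 0.0169, lost without KO MII replicate 1 at 0.105). Of 6 tested small heat shock genes, Hspb7 fell in KO RS (-1.33, adjusted p = 0.00433, held in 12 of 12 fits), and of 10 nucleotide exchange factors and BAG proteins Sil1 did (-0.55, adjusted p = 0.0292, lost without the library labelled KO RS replicate 1 at 0.120).

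**Figure D5:**
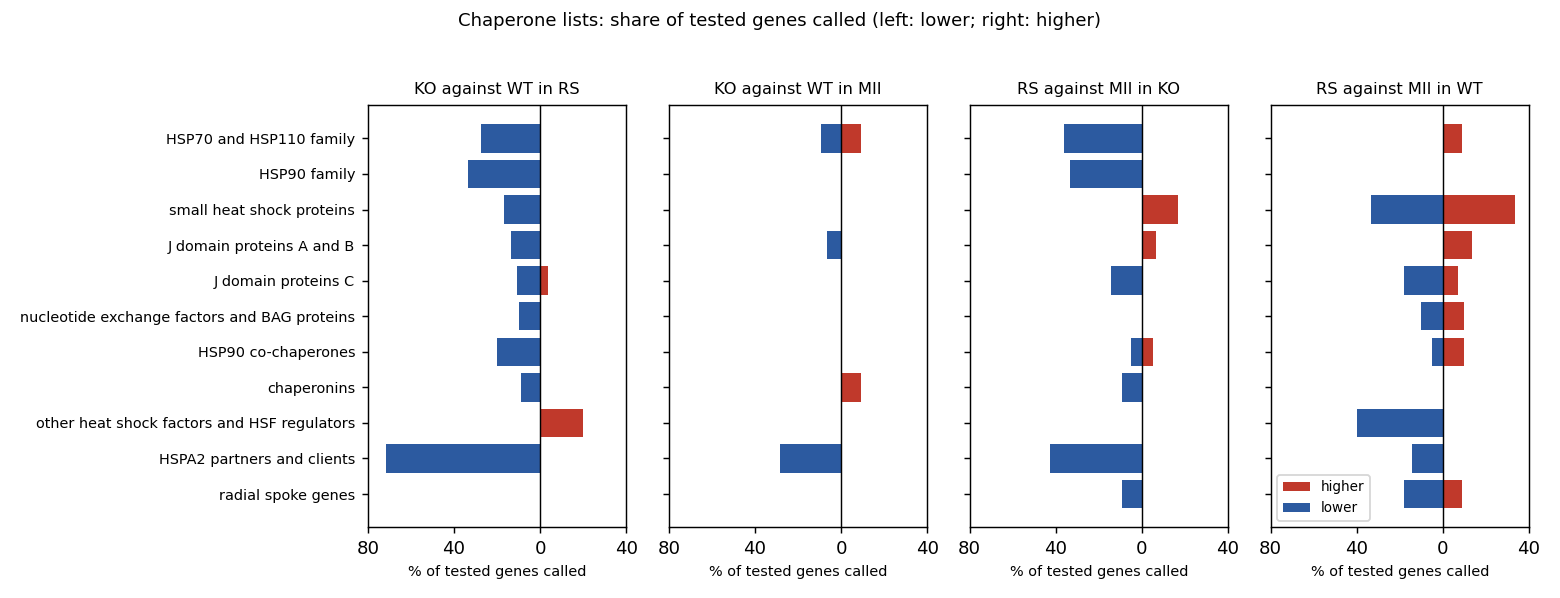
Percent of the tested genes of each chaperone network list called lower (left) or higher (right), for KO against WT in RS and MII and for RS against MII in KO and WT. In RS 2 genes are higher in KO and 21 lower over all lists, and the list of HSPA2 partners and clients has 5 of 7 lower, against 7.39% of all genes lower.

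Between the stages, 3 of the 126 genes rose and 15 fell in RS against MII of KO (14.3%, against 12.3% of all genes), and 11 rose and 14 fell in WT (19.8%, against 16.4%). Stip1, which encodes the HOP protein that joins HSP70 to HSP90, rose in RS of both genotypes, by 0.47 in KO (adjusted p = 0.0262) and 0.84 in WT (adjusted p = 0.000458). Dnajb12 rose too, by 0.57 in KO (adjusted p = 0.0178) and 0.78 in WT (adjusted p = 0.00200). Leaving out the library labelled KO RS replicate 1 gave KO values of 0.52 for Stip1 (adjusted p = 0.0499) and 0.58 for Dnajb12 (adjusted p = 0.0545), and 10 of the 18 genes called in KO passed. Dnajc8 fell in RS of both, to 34.1 CPM in KO RS, against 82.6 CPM in KO MII (-1.28, adjusted p = 0.000168), and to 52.0 CPM in WT RS, against 112 CPM in WT MII (-1.11, adjusted p = 0.000617). Leaving out single libraries moved the WT counts to between 6 and 6 (without WT MII replicate 3) and 20 and 17 (without WT MII replicate 2).

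The genes whose log2 CPM across the 12 libraries was most like each of the 9 were sought among 8338 genes that averaged 5 CPM or more. Pearson's r was highest for Dnajb13, at 0.99 with Spata46, 0.98 with Lrrc18 and 0.98 with Spaca1, a round spermatid marker. Hsf2 was most like Ssbp2 (0.98), Ttll7 (0.98) and Armc4 (0.97), and Hsf1 most like Anapc2 (0.98), Efcab6 (0.97) and Poll (0.97). For Hspa1l the highest was Ccdc25 (0.97), for Hspa2 Stag3 (0.95), for Hsp90aa1 Mdh1b (0.95), for Hspb9 Polr1d (0.94), for Hspa4l Lrrc6 (0.94) and for Dnajb3 Dbil5 (0.91). These values describe 12 libraries of 4 groups that share their depth and group differences, and carry no test.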

How the data were processed

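Counts were analysed for 12 libraries (4 groups of 3) named by the labels. The authors deposited raw counts, whole numbers for each gene and library, in 1 table that also gives exon lengths. Per the submitters' processing notes, reads were handled with STAR 2.7.10a, featureCounts 2.0.2, Trim Galore 0.6.7 and DESeq2 on mm10. How strand and multi-mapping reads were handled, and which annotation was used, is not given in the sources. Exon overlaps came from the exon coordinates in the authors' table of counts, and shared 100-base windows from the transcripts of GENCODE M21 for mm10.

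Of 37839 genes with a count, 21291 were kept by filterByExpr of edgeR (at least 10 counts, total of at least 15). CPM values use TMM-scaled library sizes. The test was edgeR 4.0.16's quasi-likelihood F test (R 4.3.3, robust, all 12 libraries, 1 mean per group, 8 residual degrees of freedom), with Benjamini-Hochberg adjustment over all genes and a threshold of 0.05. The biological coefficient of variation was 22.3%. An SE is the log2 fold change divided by the square root of F, and intervals are at 95%. With 3 libraries against 3, exact permutation of a single gene gives p = 0.1 at best, so none was run. The libraries of a group correlated at 0.965 to 0.983 and differed beyond counting noise (chi-square per degree of freedom of 8.98 to 88.0).

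The 9 genes, the 11 lists, the 9 marker lists and the tests were chosen with earlier results of these data known. Named are all 9 genes, up to 4 called genes per list and comparison with the smallest adjusted p, or the 2 most abundant of a list without a call, and the 3 genes most like each of the 9, predicted genes and clone symbols excepted. The texts give a part of these. Alternatives were DESeq2's size factors (1.42.0), total counts, no filter, at least 5 CPM in 3 libraries, DESeq2, limma-voom (3.58.1), only the libraries compared, a block on the replicate number, removal of 37 mitochondrial genes and the top 10 by count, and omission of each library. The tests were also run on simulated counts, drawn as independent libraries with the fitted spread, which cannot check whether the real libraries share animals.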

Additional observations from a re-analysis of the deposited data

How the results depend on the processing

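The rise of Hsf1 (1.12 to 1.46 on the log2 scale) and Hsf2 (0.56 to 0.90) in RS of WT and of Hsf2 in RS of KO (0.60 to 0.70) passed without each single library and under all 9 other settings. Dnajb13 and Hsf1 in RS passed without 5 of 12 single libraries each, and both were lost with the replicate number as a block (adjusted p = 0.0513 and 0.0585), as was Dnajb13 with total counts (0.0557). The fall of Hsp90aa1 in RS of WT was lost without a filter (0.125) and with only the libraries compared (0.103).

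Without single libraries the genes called ranged from 147 to 976 in MII, 1080 to 3573 in RS, 0 to 2 for the difference, 1096 to 3286 between the stages of KO and 1776 to 3980 of WT. The 9 genes' calls ranged from 0 to 1, 0 to 4, 0 to 0, 1 to 2 and 2 to 4 in the same order. Genes called in MII were 1440 without a filter, 1519 in DESeq2 and 403 with only the libraries compared, against 784, and DESeq2 called 1 of the 9. In RS total counts called 1 of the 9 and only the libraries compared 4. The difference had 65 genes without a filter, 0 at 5 CPM, 19 in DESeq2, 0 in limma-voom and 3 with the block. It uses all 12 libraries, so that only the libraries compared was not run for it. With only the libraries compared, the stages differed in 4451 genes of KO and 2108 of WT. Of the 9, KO called 2 without a filter, in DESeq2 and in limma-voom, and 3 with only the libraries compared.

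With the replicate number as a block the genes called were 744 in MII, 2691 in RS, 3 for the difference, 2527 between the stages of KO and 3341 of WT, and of the 9 genes 0, 0, 0, 1 and 3. Of 18 pairs of same-numbered libraries 4 correlated above 0.1 in their deviations (r between -0.203 and 0.287), and 4 of 12 libraries correlated best with their own number, so the numbers were not taken to pair the libraries. Between KO RS and KO MII the same-numbered pairs were at 0.287, 0.084 and 0.155 and the others at -0.238 to 0.090. The labels do not say whether these share animals.

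Signs turned only for values that were never called, at most 0.24 in size after the turn. Without single libraries the log2 fold changes ranged, in MII, from -0.14 to 0.14 for Hspa2, -0.041 to 0.10 for Hsp90aa1, -0.10 to 0.01 for Hspb9, -0.029 to 0.12 for Dnajb3 and -0.11 to 0.29 for Hsf1, and in RS from -0.012 to 0.11 for Hspb9. For the difference they ranged from -0.22 to 0.21 for Hspa1l, -0.068 to 0.085 for Hspa4l and -0.23 to 0.09 for Hsf2. Between the stages of KO they ranged from -0.18 to 0.24 for Hspa1l and -0.089 to 0.058 for Hspa4l, and of WT from -0.12 to 0.20 for Hspa1l, -0.045 to 0.018 for Hspa4l, -0.066 to 0.064 for Dnajb3 and -0.043 to 0.23 for Dnajb13. The other turns were Hspa1l in the difference in limma-voom (0.002), Dnajb3 in WT stages with DESeq2's size factors (0.006), without a filter (0.057) and in DESeq2 (0.006), Hspa4l there without a filter (0.032), Hspa1l there at 5 CPM (-0.003), and in KO stages Hspa1l without a filter (0.018) and in limma-voom (0.009) and Hspa4l without a filter (0.005). The causes were not tested. Of 396 values of single genes under settings other than single libraries, 369 kept sign and call. Limits remain: 3 libraries per group, uncertain reads of Hspa1l and Hsp90aa1 copies, and capture by poly(A) priming, so that counts do not measure tail length. Whether tail length changed the capture of mRNAs between the genotypes was not tested.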

Other observations

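The spread between libraries was smallest in KO RS for all of the 9 genes but Hspb9 (3.35% there, 2.66% in KO MII). The coefficient of variation was 1.44% for Hsp90aa1, 1.88% for Hsf2 and 3.74% for Hsf1 in KO RS, against 6.60%, 4.0% and 14.3% in WT RS. In KO MII it was 11.7%, 6.96% and 22.9%, against 5.94%, 24.9% and 22.0% in WT MII. Over all genes with a mean above 5 CPM the median was 8.65% in KO RS, 13.7% in WT RS, 11.7% in KO MII and 18.2% in WT MII. The library labelled KO RS replicate 1, whose Pan2 level was the highest, had Hsf1 at 22.0 CPM (22.6 and 23.7 in the other KO RS libraries) and Hsf2 at 107 CPM (111 and 108). Its Hspa1l level of 48.4 CPM (41.4 and 38.6 in the others) lay within the WT RS range, which began at 46.4 CPM, and its summed Sertoli markers were at 292 CPM (46.0 and 67.1 in the others).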
